A study of Mus musculus with 15 samples.

Results

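A group of 9 genes that report on TGF-beta signalling and on the transcription factor YAP were followed in mouse fibroblasts after a single unfolded protein appeared in the cells. The 9 members were chosen as TGF-beta feedback genes and YAP/TEAD target genes with their CPM values in these 4 groups in view, so those values are given below as a description. No p-value is given for a member. The number of members past a threshold stands beside the share of all genes past it, except in some alternative fits and fits without single libraries, where nothing is read from it. They comprised 5 genes of the TGF-beta feedback group (Tgfb1, Ski, Skil, Tgif1 and Klf10) and 4 YAP/TEAD target genes (Ankrd1, Cyr61, Ctgf and Amotl2). All 9 were found among the 20207 RefSeq genes of the deposited tables, and 8 of them were among the 10276 genes that no sample had at 0 counts. Tgfb1 had no count in 1 control sample and was therefore left out of the fit.

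The cells were NIH3T3, an established mouse embryonic fibroblast line, and every group carried the same reporter, DD-sfGFP. In this reporter a destabilizing domain (DD), derived from the protein FKBP, is joined to superfolder GFP, and the domain stays folded as long as it binds a small ligand, Shield-1 (S1). The reporter was integrated with a PiggyBac vector and strongly fluorescent cells were sorted, so each group was of such an engineered line and not of unmodified cells. In the control group (5 samples, stress given as none and time as 0) S1 was not withdrawn. In the DD 45min (3 samples), DD 135min (3 samples) and DD 405min (4 samples) groups S1 was withdrawn by adding purified FKBP protein to the medium, and RNA was collected after 45, 135 and 405 min. The question was which transcripts respond, and when, once the reporter is unfolded. The labels did not say whether replicates came from separate cultures, so the p-values below measure the spread between these samples, which may be technical.

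TGF-beta ligands bind paired receptor kinases that phosphorylate Smad2 and Smad3, and these enter the nucleus with Smad4 and switch on target genes. Several of the first targets act back on the pathway: Ski and Skil (SnoN) are co-repressors that bind Smads, Tgif1 is a homeodomain co-repressor, Klf10 is a zinc finger factor first described as a TGF-beta inducible early gene, and Smad7 blocks the receptors. YAP and its relative TAZ are co-activators held in the cytoplasm by the Hippo kinases and by low mechanical tension. In the nucleus they work through TEAD factors, and Ctgf, Cyr61, Ankrd1 and Amotl2 are among the genes most often used to read them out. Both inputs meet on some genes, Ctgf among them.

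The sequences upstream of 3 of the YAP/TEAD target genes are shown because they carry the letters read by TEAD factors. RefSeq promoter sequence (GRCm38.p6) was at hand for 6 of the 9 members, and the 250 bases before the annotated start were searched on both strands for the TEAD motif GGAATG (reverse complement CATTCC). All 3 members of the YAP/TEAD group with a sequence held the motif, and none of the 3 members of the TGF-beta group did, among them the 5 annotated starts of Tgif1. Over all 32851 RefSeq windows of this length, 12.6% held it. The windows are printed 5′ to 3′ on the strand of the gene, with the motif in capitals. The Cyr61 window (Ccn1 in RefSeq) lies at chr3:145649986-145650235 on the minus strand, that of Ankrd1 at chr19:36119845-36120094 on the minus strand, and that of Amotl2 at chr9:102717554-102717803 on the plus strand.
Cyr61: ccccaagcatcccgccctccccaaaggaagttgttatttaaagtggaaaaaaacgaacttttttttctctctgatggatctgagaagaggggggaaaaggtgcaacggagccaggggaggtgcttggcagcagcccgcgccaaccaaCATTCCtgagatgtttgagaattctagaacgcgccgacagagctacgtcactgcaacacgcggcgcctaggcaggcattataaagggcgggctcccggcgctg
Ankrd1: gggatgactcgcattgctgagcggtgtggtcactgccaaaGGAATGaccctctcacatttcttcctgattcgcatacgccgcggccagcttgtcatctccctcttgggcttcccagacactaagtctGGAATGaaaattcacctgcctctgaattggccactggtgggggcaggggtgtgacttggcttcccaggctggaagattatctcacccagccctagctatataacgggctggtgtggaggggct
Amotl2: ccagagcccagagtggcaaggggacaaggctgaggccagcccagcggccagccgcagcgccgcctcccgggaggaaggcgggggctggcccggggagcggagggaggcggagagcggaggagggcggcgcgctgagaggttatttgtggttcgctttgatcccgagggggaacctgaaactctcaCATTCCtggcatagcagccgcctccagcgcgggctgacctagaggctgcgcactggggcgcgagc
The motif began 103 bases upstream of the start in Cyr61, 210 and 123 bases upstream in Ankrd1, and 65 bases upstream in Amotl2. The 5-base Smad-type motif CAGAC (reverse complement GTCTG) was found in the windows of Tgif1 and Ankrd1, where 42.2% of all windows held it. A match describes letters only and says nothing of binding in these cells.

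Total counts per sample ranged from 6652539 to 30258404. The samples were divided into 2 library sets, defined by the slope of log2 CPM against exonic GC content in each library. The groups did not explain these sets. The libraries of each set were chosen by this slope, with a cut at −0.519 in log2 units for 10 percentage points. The slopes were −1.353 to −0.656 in set 1 and −0.383 to 0.021 in set 2. The cut lay in the widest gap between neighbouring slopes, and such a cut gives 2 sets in any data. That gap was little wider than the one between −1.353 and −1.100 (control replicates 3 and 4) inside set 1. The division therefore does not show 2 distinct batches and may split a continuous spread. Set 2 held control replicate 2, replicate 3 of the DD 45min group and replicates 1, 2 and 4 of the DD 405min group, and set 1 held the other 10 libraries, including all DD 135min samples. The labels name the NuGEN Encore Complete kit for every sample, whereas the methods of the study describe both a protocol with random hexamers and a NuGEN Encore kit. Which sample had which preparation was not given in the sources used here, and its part in the sets was not tested. Library set therefore moved with time after S1 withdrawal, so values with library set as a term in the model or within a set are given beside the results. The 8 fibroblast markers were abundant, as the label fibroblast implies, and summed to 9523 to 14148 CPM, against 0.275 to 2.79 CPM for 6 epithelial and 0.978 to 4.84 CPM for 7 blood and endothelial markers. At 405 min 5 of the 8 fibroblast markers were lower than in controls by the test used below, and their sum was 9523 to 12065 CPM against 12118 to 14148 CPM in controls. The sum of the blood and endothelial markers lay the other way, at 4.54 to 4.84 CPM at 405 min against 0.978 to 3.84 CPM in controls. That held for Cd68 (mean 3.36 against 0.943 CPM) and Cdh5 (1.01 against 0.112 CPM), above all controls in every 405-min sample. Pecam1 (0 against 0.84 CPM), Kdr (0.191 against 0.286 CPM) and Emr1 (0.0137 against 0.0336 CPM) had lower means. Cd3e (0.0691 against 0.01 CPM) and Ptprc (0.0787 against 0.0301 CPM) stayed near 0. Ptprc, the pan-leukocyte marker CD45, had at most 0.75 CPM in any sample. Whether either list of markers had a part in the results at 405 min was not tested. In bulk RNA fewer cells of a type and less RNA per cell cannot be told apart.

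At 135 min Klf10, Ankrd1, Ctgf and Amotl2 had much less mRNA than in the controls, between 3.07-fold (Ankrd1) and 4.07-fold (Ctgf) lower. Cyr61 was 2.67-fold lower, but 1.93-fold within library set 1. Its highest 135-min sample had 45.3 CPM against 45.8 CPM in the lowest control. Skil was 2.01-fold lower. At 45 min Klf10 was the only member with every sample outside the range of the controls. At 405 min Cyr61 was within the range of the controls, and Klf10, Ctgf and Amotl2 had means between those at 135 min and in controls. Skil and Ankrd1 had means close to those at 135 min, although with library set in the model Ankrd1 was higher at 405 than at 135 min by 0.71 on the log2 scale, near the 0.78 of Ctgf and the 0.75 of Amotl2. Ski and Tgfb1 overlapped the controls at every time. Levels are given as CPM, the counts of a gene scaled to a common library size with TMM factors, and fold changes come from 1 edgeR quasi-likelihood fit of the 10276 genes over all 15 samples, with the standard error (SE).

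**Figure D1:**
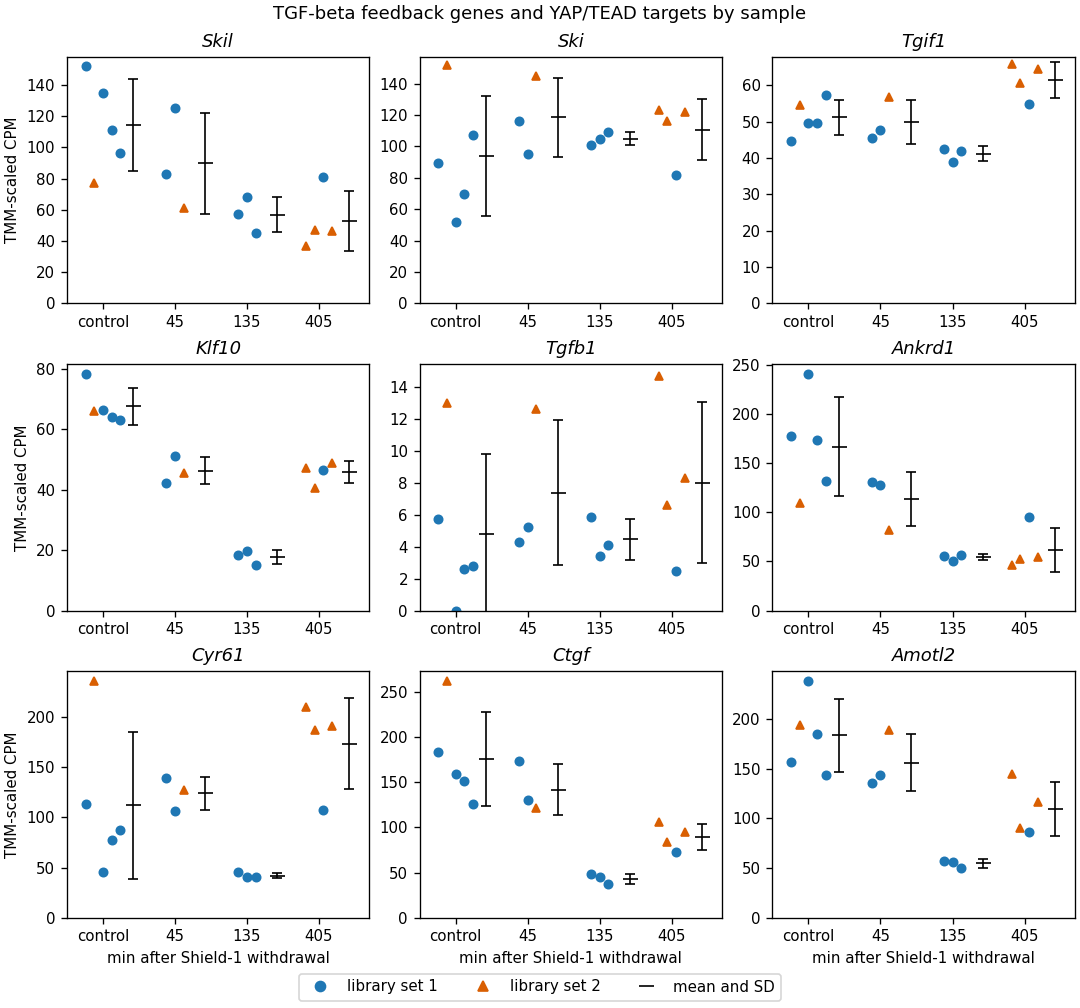
Level of each member (y axis, TMM-scaled CPM, linear from 0) in each sample by group (x axis, control or min after S1 withdrawal), with circles for library set 1, triangles for library set 2 and black marks for the mean and the SD. For Klf10, Ankrd1, Ctgf and Amotl2 the 3 samples at 135 min lay far below the controls, whereas Ski and Tgfb1 overlapped the controls at every time.

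Tgfb1 encodes the ligand TGF-beta 1 (chromosome 7, 26472021 to 26490015, mm9). Its level was low, with 5.75, 13, 0, 2.58 and 2.77 CPM in control replicates 1 to 5 and 4.29, 5.25 and 12.6 CPM at 45 min. It had 5.86, 3.4 and 4.12 CPM at 135 min and 14.7, 6.59, 2.51 and 8.3 CPM at 405 min. The highest values were those of library set 2 in each group that held it, and the groups overlapped. In a fit without the filter on low counts its log2 fold changes were 0.55 (SE 0.74), −0.15 (SE 0.75) and 0.69 (SE 0.68) at 45, 135 and 405 min. No difference was detectable beside the spread between samples. Apart from control replicate 3, the samples had 26 to 260 counts of it.

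The co-repressor Ski (chromosome 4, 154528184 to 154596644) had 89.3, 152, 51.9, 69.5 and 107 CPM in control replicates 1 to 5 and 116, 94.9 and 145 CPM at 45 min. It had 101, 105 and 109 CPM at 135 min and 123, 116, 81.7 and 122 CPM at 405 min. The controls spanned the values of every later group. The log2 fold changes were 0.33 (SE 0.27), 0.15 (SE 0.27) and 0.23 (SE 0.25) at 45, 135 and 405 min, and with library set in the model the value at 405 min was −0.11 (SE 0.18), so the sign was not settled.

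Its relative Skil, which encodes SnoN (chromosome 3, 30993983 to 31021499), had 152, 77.3, 135, 111 and 96.5 CPM in control replicates 1 to 5 and 83, 125 and 61.2 CPM at 45 min. It had 57.5, 67.9 and 45.2 CPM at 135 min and 36.9, 47, 80.8 and 46.2 CPM at 405 min. All samples at 135 min lay below all controls, and at 405 min only replicate 3, the single library of set 1 in that group, reached above the lowest control. The log2 fold change was −1.01 (SE 0.30) at 135 min and −1.12 (SE 0.27) at 405 min. With library set in the model the 2 values were −1.14 (SE 0.19) and −0.72 (SE 0.19), and within sets the 405-min value was −0.62 in set 1 and −0.84 in set 2. Skil and Ski, which act on the same Smad complexes, thus had different values at both times, a difference that was not tested.

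Tgif1 (chromosome 17, 71193547 to 71200550) had 44.8, 54.6, 49.7, 49.6 and 57.2 CPM in control replicates 1 to 5 and 45.5, 47.6 and 56.8 CPM at 45 min. It had 42.6, 38.8 and 42 CPM at 135 min and 65.8, 60.6, 54.9 and 64.6 CPM at 405 min. The samples at 135 min lay just under the lowest control and those at 405 min all lay above the 135-min samples. These were small differences, with log2 fold changes of −0.32 (SE 0.14) at 135 min and 0.26 (SE 0.13) at 405 min, or −0.27 and 0.15 with library set in the model.

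Klf10 (chromosome 15, 38224168 to 38230462) varied little among the controls. It had 78.3, 66, 66.2, 63.9 and 63 CPM in control replicates 1 to 5, and 42.2, 51 and 45.3 CPM at 45 min. It had 18.2, 19.7 and 15.2 CPM at 135 min and 47.1, 40.5, 46.5 and 48.7 CPM at 405 min. Every sample after S1 withdrawal lay below every control, at all 3 times, and the 135-min samples lay lowest. The log2 fold changes were −0.55 (SE 0.14), −1.93 (SE 0.15) and −0.56 (SE 0.13) at 45, 135 and 405 min. They were −0.55, −1.94 and −0.54 with library set in the model. At 405 min the value was −0.56 in set 1 alone and −0.55 in set 2 alone, close to that over all samples. Set 1 held 1 sample at 405 min and set 2 held 1 control, so each of these 2 values rests on a single library on 1 side.

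Ctgf, also named Ccn2, encodes a matricellular protein that is the standard YAP readout and is also induced through Smads (chromosome 10, 24315248 to 24318488). It had 184, 262, 159, 151 and 126 CPM in control replicates 1 to 5 and 174, 130 and 122 CPM at 45 min. It had 47.9, 45 and 37.2 CPM at 135 min and 106, 83.6, 72.3 and 94.6 CPM at 405 min. The 45-min samples overlapped the controls, and the 2 later groups lay wholly below them, with the 405-min samples above those at 135 min. The log2 fold change was −2.02 (SE 0.24) at 135 min and −0.99 (SE 0.20) at 405 min. Within set 1 the 135-min value was −1.83, and the 405-min value was −1.11 in set 1 and −1.48 in set 2.

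Cyr61 (Ccn1), a secreted matricellular protein of the same family (chromosome 3, 145309935 to 145312949), varied most among the controls, with 113, 236, 45.8, 77.9 and 87.6 CPM in replicates 1 to 5. It had 139, 106 and 127 CPM at 45 min, 45.3, 40.2 and 40.6 CPM at 135 min and 210, 187, 107 and 191 CPM at 405 min. The 135-min samples were the lowest, although control replicate 3, the shallowest library, was only just above them. The log2 fold change was −1.42 (SE 0.40) at 135 min and −0.95 within set 1. At 405 min it was 0.63 (SE 0.35), and the value turned with library set: in set 2 the 3 samples had 187 to 210 CPM against 236 CPM in the control of that set, a log2 fold change of −0.28, and in set 1 the single sample had 107 CPM against 45.8 to 113 CPM in 4 controls, a log2 fold change of 0.38. At 45 min the same split gave 0.59 in set 1 and −0.90 in set 2, beside 0.14 (SE 0.38) overall. The set 2 value at 45 min compared 1 sample with 1 control.

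Ankrd1 encodes a nuclear ankyrin repeat protein of stretched muscle and fibroblasts (chromosome 19, 36186455 to 36194334). It had 178, 110, 241, 174 and 132 CPM in control replicates 1 to 5 and 131, 128 and 82 CPM at 45 min. It had 55.2, 50.7 and 56.8 CPM at 135 min and 46.4, 52.2, 95 and 54.5 CPM at 405 min. Both later groups lay wholly below the controls and overlapped each other, while with library set in the model the log2 value at 405 min was 0.71 (SE 0.19) above that at 135 min, past the threshold. The log2 fold changes were −1.62 (SE 0.29) and −1.43 (SE 0.25) at 135 and 405 min. The 405-min value was −1.04 with library set in the model, −0.94 within set 1 and −1.12 within set 2.

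Amotl2 encodes angiomotin-like 2, a scaffold that binds YAP and holds it outside the nucleus, so that it is a feedback target (chromosome 9, 102620134 to 102635747). It had 157, 194, 239, 185 and 144 CPM in control replicates 1 to 5 and 136, 144 and 189 CPM at 45 min. It had 57.5, 56.6 and 49.9 CPM at 135 min and 145, 90.1, 86.3 and 117 CPM at 405 min. All samples at 135 min lay below the controls, and at 405 min 1 sample reached the lowest of them. The log2 fold changes were −1.75 (SE 0.21) and −0.75 (SE 0.19) at 135 and 405 min, with −1.08 within set 1 and −0.74 within set 2 at the later time.

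**Figure D2:**
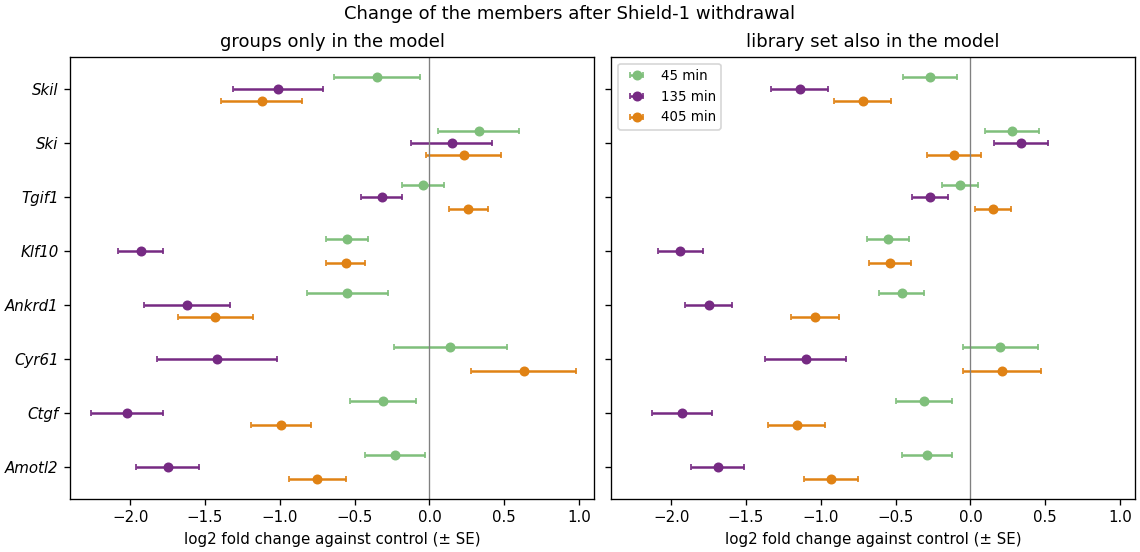
Log2 fold change against control (x axis, points with SE bars) of the 8 members in the fit at 45, 135 and 405 min, with only the groups in the model (left) and with library set added (right). Klf10 had nearly the same values in both panels (−1.93 and −1.94 at 135 min), while Cyr61 at 405 min stood at 0.63 on the left and at 0.21 on the right.

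Counted over the 8 members in the fit, none was past an adjusted p-value of 0.05 at 45 min, where 0% of all tested genes were (edgeR; 1 member and 366 of all genes had an unadjusted p-value under that level, and DESeq2 called 1 member and 6 of all genes). At 135 min 4 members were past it (Klf10, Ankrd1, Ctgf and Amotl2), all lower, beside 0.895% of all tested genes that were lower. At 405 min 5 members were past it (Skil, Klf10, Ankrd1, Ctgf and Amotl2), all lower, beside 13.4% of all genes. With library set in the model 6 members were past it at 135 min and 5 at 405 min, beside 4.88% and 6.87% of all genes. The members were chosen with such differences known, so nothing is read from these counts. The median log2 fold change of the 8 members was −0.27, −1.52 and −0.66 at 45, 135 and 405 min, beside 0.02, −0.06 and −0.00 for all tested genes.

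Counted by the positions of single samples, more members lay below all controls at 135 than at 405 min. The count with library set in the model had the same order, and that with only the groups the reverse. The 405-min group had 4 samples and the 135-min group 3, which makes this rule harder to meet at 405 min. At 45 min 1 of the 8 members (Klf10) had every sample below all controls, as had 0.448% of all tested genes. At 135 min 7 members had (all but Ski), as had 4.75% of all genes. At 405 min 3 members had (Klf10, Ankrd1 and Ctgf), as had 6.43% of all genes.

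Between 135 and 405 min 5 members (Tgif1, Klf10, Cyr61, Ctgf and Amotl2) had every 405-min sample above every 135-min sample, as had 19.2% of all tested genes. The same 5 were past the adjusted p-value of 0.05 in that comparison, all higher, beside 2.24% of all genes that were higher. Cyr61 stood 4.14-fold higher, with a log2 fold change of 2.05 (SE 0.42), Klf10 2.58-fold, Ctgf 2.05-fold, Amotl2 2-fold and Tgif1 1.49-fold. Ankrd1 and Skil had log2 fold changes of 0.19 (SE 0.28) and −0.11 (SE 0.30), and with library set in the model these were 0.71 and 0.42. Without replicate 3 at 405 min the value of Ankrd1 was −0.09, and that of Skil was 0.04 without replicate 2 at 135 min and 0.03 without replicate 1 at 405 min. All 135-min samples were of set 1 and 3 of the 4 405-min samples of set 2. With library set in the model Cyr61 stood at 1.31, Klf10 at 1.40, Ctgf at 0.78, Amotl2 at 0.75 and Tgif1 at 0.43. In that model 3 members (Klf10, Ankrd1 and Cyr61) were past the threshold, all higher, beside 171 of all 10276 tested genes that were higher. Leaving out single libraries reduced the count of 5 to 1 without any 1 of the 3 samples at 135 min or without replicate 4 at 405 min, and to 2 without replicate 1 at 405 min.

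**Figure D3:**
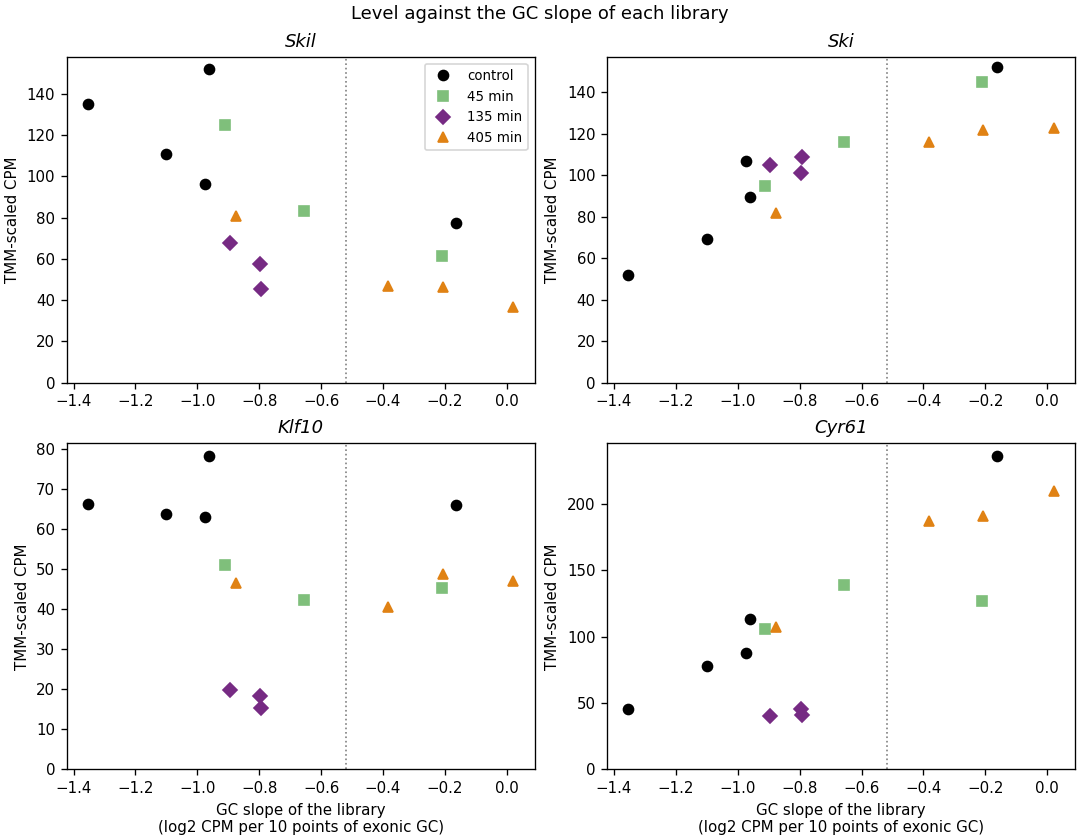
Level of Skil, Ski, Klf10 and Cyr61 (y axes, TMM-scaled CPM from 0) in each library against the GC slope of that library (x axes, in log2 units for 10 percentage points of exonic GC), by group, with the 2 library sets on either side of the dotted line. Among controls Ski and Cyr61 were highest (152 and 236 CPM) and Skil lowest (77.3 CPM) in the 1 library of set 2, while Klf10 had 66 CPM there, within its 63 to 78.3 CPM in set 1.

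The members differed in base composition, which the choice of genes had not used. Exonic GC content was 39.9% in Skil, 46.8% in Ankrd1, 47.1% in Klf10, 50.9% in Tgif1, 52.2% in Ctgf, 52.8% in Cyr61, 55.7% in Ski, 55.9% in Amotl2 and 61.5% in Tgfb1. The gene with the lowest GC content, Skil, was lower in the set 2 control than in any set 1 control, and so was Ankrd1. Ski, Cyr61, Ctgf and Tgfb1, which are richer in GC, were higher there than in any set 1 control. Amotl2, which is as rich in GC as Ski, had 194 CPM there, within its 144 to 239 CPM in set 1. Klf10 had 66 CPM there and Tgif1 54.6 CPM, within their 63 to 78.3 and 44.8 to 57.2 CPM in set 1. Set 2 held only 1 control. Part of the spread of Skil, Ankrd1, Ski, Cyr61, Ctgf and Tgfb1 therefore ran along library set. Its part in their values at 405 min was not tested beyond the values within sets given above.

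Levels of different genes can be set side by side only per length, for which the deposited RPKM values were used. In controls the mean RPKM was 40.1 ± 6.2 (SD, n = 5) for Ankrd1, 33.7 ± 15.6 for Ctgf, 27.1 ± 21.5 for Cyr61 and 19.1 ± 4.03 for Amotl2. It was 14.6 ± 4.3 for Tgif1, 10 ± 2.75 for Klf10, 8.33 ± 4.85 for Ski, 7.59 ± 2.1 for Skil and 1.18 ± 1.29 for Tgfb1. Neighbours in this order lay within the sum of their SDs, except Skil and Tgfb1. Taken within each control sample, Tgfb1 was below Skil and Klf10 below Tgif1 in every one. At 135 min the order was changed, with mean RPKM of 15.8 for Ankrd1, 12.9 for Tgif1, 10.6 for Cyr61, 9.83 for Ski, 9.27 for Ctgf, 6.7 for Amotl2, 4.44 for Skil, 2.99 for Klf10 and 1.09 for Tgfb1. Ctgf, second of the 9 in controls, was thus the fifth at 135 min, and Klf10 had moved below Ski and Skil.

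Some pairs of members followed each other over the 15 samples and others did not. Pearson's r of log2 CPM was 0.92 between Ctgf and Amotl2, 0.90 between Klf10 and Ctgf, 0.90 between Klf10 and Amotl2 and 0.92 between Skil and Ankrd1. Ankrd1 also had 0.71 with Ctgf, 0.70 with Amotl2 and 0.69 with Klf10, and Tgif1 had 0.76 with Cyr61. It was −0.62 between Skil and Ski and −0.22 between Skil and Cyr61. These values describe 15 samples that share group and library set, and carry no test. Among all other tested genes, those most like Skil in this measure were Vezf1 (0.96), Filip1l (0.94), Cdc42ep3 (0.94), Eif4a2 (0.94) and Zfp318 (0.94), and those most like Cyr61 were Nuak1 (0.94), Fosl2 (0.93), Polm (0.92), Daxx (0.92) and Hps4 (0.92). Filip1l and Cdc42ep3 had log2 fold changes of −1.67 and −1.45 at 135 min and −1.78 and −1.46 at 405 min, whereas the 5 genes like Cyr61 ran from −0.92 to −0.35 at 135 min and from 0.20 to 0.49 at 405 min.

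Another 79 genes of the same 2 pathways, taken from lists of ligands, receptors, inhibitors, targets, Hippo components and TEAD cofactors, were all in the tables, and 72 of them could be tested. The lists were chosen with earlier results of these data known, so their counts are no independent evidence of a difference from the background. At 45 min none was called by edgeR (4 had an unadjusted p-value under 0.05, and DESeq2 called 0). At 135 min 6 fell and 1 rose, and at 405 min 21 fell and 2 rose, by the edgeR quasi-likelihood test with Benjamini-Hochberg adjustment over all 10276 genes. The background was 0.895% lower and 0.564% higher of all tested genes at 135 min, and 13.4% lower and 9.99% higher at 405 min. The median log2 fold change of the 72 genes was −0.07 at 135 min and −0.17 at 405 min, beside −0.06 and −0.00 for all genes. With library set in the model 12 fell and 3 rose at 135 min (background 4.88% and 3.06%), and 18 fell and 2 rose at 405 min (background 6.87% and 6.17%). None of the 7 calls at 135 min was made when only those samples and the controls were fitted, and at 405 min that fit called 10. The counts also rested on single libraries: in place of 7 calls at 135 min, the fit made 0, 1 and 2 without replicate 1, 2 or 3 of that group and 4 without control replicate 1, and in place of 23 at 405 min it made 13, 13 and 10 without replicate 1, 2 or 4 of that group.

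**Figure D4:**
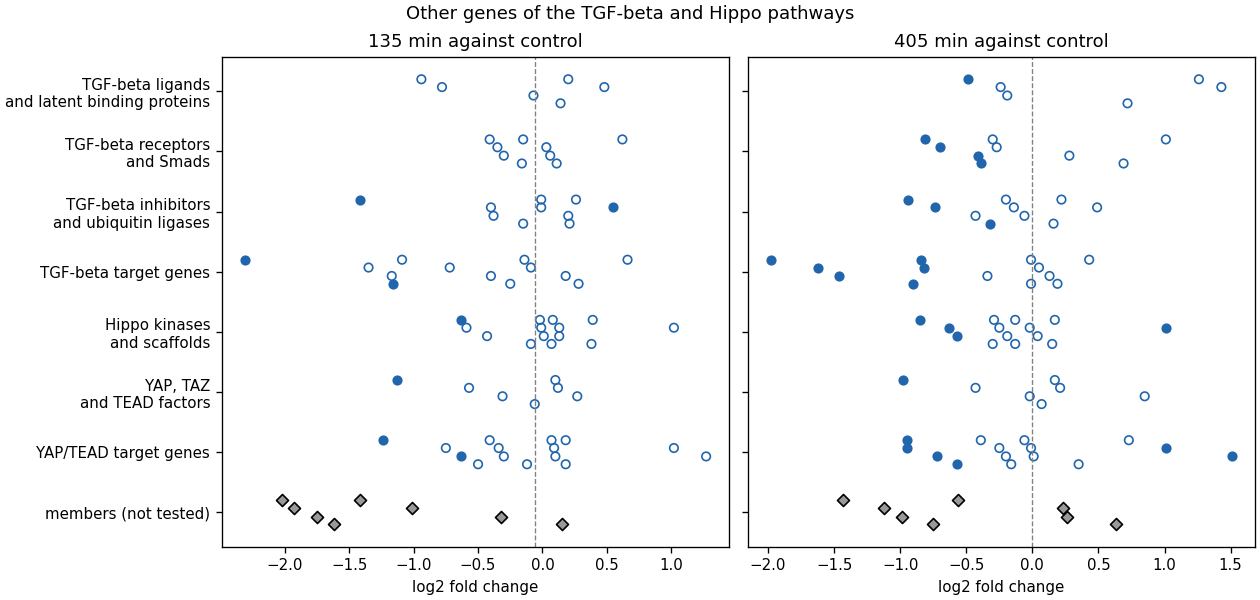
Log2 fold change at 135 min (left) and 405 min (right) against control (x axes) of the tested genes of each pathway list (rows), filled where the adjusted p-value was under 0.05, with the members as grey diamonds and the median of all tested genes as a dashed line. Most genes of each list lay within 1 log2 unit of the line, and Snai2 (−2.31 at 135 min) lay farthest from it on the left.

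Among the ligands and the latent TGF-beta binding proteins, which store the ligand in the matrix, 1 of 6 tested genes was called against control with only the groups in the model. With library set in the model 2 of the 6 were called lower at 135 min and 1 at 405 min, beside 4.88% and 6.87% of all genes. Ltbp1 fell by 0.49 (SE 0.15) on the log2 scale at 405 min, where controls had 220 ± 41.9 CPM (SD, n = 5) and the 405-min samples 156 ± 26.5 CPM (SD, n = 4), for which the edgeR adjusted p was 0.0297, with a range of 0.000828 to 0.122 over the alternatives. With library set in the model its value was −0.69. It also lay lower at 405 than at 135 min. Of 9 receptors and Smads none changed at 135 min and 4 fell at 405 min. Tgfbr1, the type I receptor kinase, fell by 0.81 (SE 0.22, adjusted p = 0.0193), Acvr2a, an activin receptor, by 0.70 (SE 0.22, adjusted p = 0.033) and Smad2 by 0.41 (SE 0.13, adjusted p = 0.0314), and all 3 of these calls were lost with library set in the model, at adjusted p-values of 0.107, 0.188 and 0.071. The highest adjusted p-values over all alternatives were 0.665, 0.839 and 0.637. Within set 2 their log2 fold changes were −0.24, −0.15 and −0.25. The fourth, named after its value was seen, was Tgfbr3, the co-receptor betaglycan, with a log2 fold change of −0.39.

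Among 10 inhibitors and ubiquitin ligases of the pathway, 1 fell and 1 rose at 135 min, and 3 fell at 405 min. Smad7, the inhibitory Smad, fell by 1.42 (SE 0.23) on the log2 scale at 135 min, from 44.6 ± 12.7 CPM in controls to 16.7 ± 0.689 CPM (SD, n = 3), with an edgeR adjusted p = 0.00474 and a range of 3.34e-07 to 0.073 over the alternatives. Every sample at 135 min was below all controls. At 405 min it fell by 0.74 (SE 0.20, adjusted p = 0.0206, range 0.00321 to 0.26), and the samples overlapped the controls. With library set in the model these values of Smad7 were −1.41 and −0.75, and with the GC offset and the replicate block the value at 405 min was −1.38. Smurf2, a ubiquitin ligase that works with Smad7, rose at 135 min, from 109 ± 7.39 to 160 ± 2 CPM, a log2 fold change of 0.55 (SE 0.11) with an adjusted p = 0.0245 and a range of 1.9e-05 to 0.2 (0.54 with library set in the model). Bambi, a pseudoreceptor, and the co-repressor Ncor1 fell at 405 min by 0.94 (SE 0.25, adjusted p = 0.0171) and 0.32 (SE 0.11, adjusted p = 0.0404), and neither was called with library set in the model, at adjusted p-values of 0.0646 and 0.124. Their ranges over the alternatives were 0.00149 to 0.41 and 0.00384 to 0.673.

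Of 13 tested TGF-beta target genes 2 fell at 135 min and 6 at 405 min, and none rose. Snai2 (Slug), a repressor of the epithelial state, fell by 2.31 (SE 0.40) on the log2 scale at 135 min, from 90.2 ± 47.9 CPM to 18.2 ± 1.84 CPM, with an edgeR adjusted p = 0.00815 and a range of 3.9e-07 to 0.0765. At 405 min it fell by 1.98 (SE 0.35, adjusted p = 0.00201, range 5.63e-07 to 0.1), and its value was −1.46 with library set in the model, −1.67 within set 1 and −0.82 within set 2, where neither set alone gave a call. Its relative Snai1 fell by 1.16 (SE 0.27, adjusted p = 0.0489, range 0.00162 to 0.246) at 135 min, with −0.99 when library set was in the model. Thbs1, thrombospondin 1, an activator of latent TGF-beta, fell by 1.62 (SE 0.22, adjusted p = 0.000336) at 405 min, from 633 ± 211 CPM to 206 ± 45.1 CPM, and was called under each of the 13 alternatives and without any single library, with adjusted p-values up to 0.0102. Postn, the matrix protein periostin, fell by 1.46 (SE 0.39, adjusted p = 0.0193), from 548 ± 286 CPM to 199 ± 57.1 CPM, and was not called with library set in the model, where its log2 fold change was −0.86 (adjusted p = 0.146, range 0.00171 to 0.351), nor within set 2, where it was −0.57. The value of Thbs1 with library set in the model was −1.86.

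Fn1, fibronectin, a standard readout of the pathway that is named here after its values were seen, had 3814 ± 426 CPM in controls and 4310 ± 290 CPM at 135 min, and its log2 value differed by 0.18 (SE 0.18), which was not called (edgeR adjusted p = 0.756). It does not stand for its list. Of the 13 tested TGF-beta target genes 10 had negative and 3 positive log2 fold changes at 135 min, with a median of −0.40 beside −0.06 for all tested genes.

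In the Hippo branch the mRNA of the co-activators themselves was close to control. Yap1, named after its value was seen, had log2 fold changes of 0.12 (SE 0.18) at 135 min and 0.21 (SE 0.17) at 405 min, and Wwtr1, which encodes TAZ, −0.06 (SE 0.16) and 0.17 (SE 0.14), none of them called. Of the 7 tested YAP, TAZ and TEAD factors 1 fell at both times, Vgll3, a vestigial-like cofactor of TEAD, by 1.13 (SE 0.22, edgeR adjusted p = 0.0179, range 8.39e-05 to 0.13) at 135 min and by 0.98 (SE 0.20, adjusted p = 0.00432, range 3.69e-05 to 0.221) at 405 min. The values of Vgll3 with library set in the model were −1.17 and −0.84.

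Of 14 Hippo kinases and scaffolds 1 fell at 135 min, and 3 fell and 1 rose at 405 min. Lats2, the kinase that phosphorylates YAP and is itself a YAP target, fell by 0.63 (SE 0.14) at 135 min and by 0.57 (SE 0.13) at 405 min, with edgeR adjusted p-values of 0.0432 (range 0.000675 to 0.251) and 0.00902 (range 0.000112 to 0.322). Lats2 had −0.66 and −0.49 with library set in the model. Amot, angiomotin, fell by 0.63 (SE 0.14, adjusted p = 0.00861, range 0.000242 to 0.296) at 405 min, and its value was −0.58 with library set in the model, beside the −0.75 of its relative Amotl2. Sav1, the adaptor of the Hippo kinases, fell by 0.85 (SE 0.26, adjusted p = 0.0297) at 405 min and was not called with library set in the model (−0.43, adjusted p = 0.165, range 0.00289 to 0.756), and its value within set 2 was −0.18. Ptpn14, a phosphatase that binds YAP, rose by 1.01 (SE 0.26) on the log2 scale at 405 min, from 57.6 ± 21.9 CPM to 116 ± 32.5 CPM (adjusted p = 0.0156, range 0.000937 to 0.329), and its value was 0.58 with library set in the model, 0.62 within set 1 and 0.46 within set 2.

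Of 15 tested YAP/TEAD target genes outside the members, 2 fell at 135 min and 4 fell and 2 rose at 405 min. The 2 at 135 min were Lats2, given above, and Foxf2, a forkhead factor, which fell by 1.24 (SE 0.21) from 57 ± 14.4 CPM to 24 ± 3 CPM (edgeR adjusted p = 0.00756, range 3.03e-06 to 0.296) and was still lower by 0.95 (SE 0.19, adjusted p = 0.00431, range 3.91e-05 to 0.404) at 405 min. Foxf2 had −1.30 and −0.71 with library set in the model, and with the GC offset −1.57 at 405 min. Asap1, an Arf GTPase-activating protein, fell by 0.72 (SE 0.12, adjusted p = 0.00151, range 5.09e-08 to 0.19) at 405 min, and Fjx1 fell by 0.95 (SE 0.30, adjusted p = 0.0362, range 0.00771 to 0.311). Asap1 had −0.67 and Fjx1 −1.10 with library set in the model, and with the GC offset Fjx1 had −1.58. Gadd45a, a growth arrest and DNA damage gene that p53 and stress signals also drive, rose by 1.51 (SE 0.29) on the log2 scale at 405 min, from 21.2 ± 8.97 CPM to 61.1 ± 16.9 CPM, and was called under each of the 13 alternatives and without any single library (adjusted p = 0.00301, highest 0.0473), with a value of 1.77 when library set was in the model. The second riser was Ptpn14, which is in both lists.

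Between 135 and 405 min 4 of the 72 genes fell and none rose (background 2.82% lower and 2.24% higher). Ltbp1 fell by 0.63 (SE 0.17, edgeR adjusted p = 0.043, range 0.00248 to 0.164), Smurf2 by 0.61 (SE 0.12, adjusted p = 0.0115, range 1.42e-06 to 0.178), Lox, lysyl oxidase, by 0.75 (SE 0.17, adjusted p = 0.0255, range 0.00064 to 0.424) and Thbs1 by 0.90 (SE 0.24, adjusted p = 0.0456, range 0.00648 to 0.155). With library set in the model the 4 values were −0.92, −0.55, −0.92 and −1.26. Without TMM factors, which moved the median of all genes in this comparison from 0.04 to 0.18 on the log2 scale, 2 rose and 1 fell. Smurf2 was thus high at 135 min and back at 105 ± 6.9 CPM (SD, n = 4) at 405 min, beside 109 ± 7.39 CPM (SD, n = 5) in controls, while Ltbp1, Lox and Thbs1 were lowest at 405 min.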

How the data were processed

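RNA of 15 samples was sequenced by the authors, and reads were aligned to the mm9 mouse assembly and quantified against RefSeq on the DNAnexus platform. The aligner was not given in the sources used here. The deposited tables, 1 for each sample, gave per gene an expected count (an estimated number of reads, with a fraction in 8.71% to 15.6% of genes) and, from the authors, an RPKM value (reads scaled by transcript length and library size). The authors also computed from RPKM a score (the Z-score over the genes of a sample) and a ratio of RPKM to its root mean square, which entered no result. Transcript coordinates differed between tables for 940 of 20207 genes, so RPKM lengths can differ too.

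Expected counts were rounded and tested with edgeR 4.0.16 in R 4.3.3 (TMM factors, quasi-likelihood test, all 15 samples, design of groups only), on the 10276 genes with at least 1 count per sample, with Benjamini-Hochberg adjustment and a threshold of 0.05. The design had assumed whole counts. CPM is the rounded count scaled by the total over tested genes times its TMM factor. The test was also run on simulated counts. Alternatives were DESeq2 1.42.0, other normalizations, filters and samples, a replicate block, and library set. GC offsets, the omission of the libraries with the extreme GC slopes and total counts were added after seeing the data.

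The members and lists were chosen with earlier results of these data known. Named genes were the members and, for each list and comparison, up to 3 rising and 3 falling genes with the largest called changes. Total counts set the precision of each value, and the other stresses of the study were not analysed here. All 22 pairs of replicates differed beyond sampling noise (chi-square per degree of freedom 9.97 to 237). The result of 1 gene of the pathway lists is not reported here.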

Additional observations from a re-analysis of the deposited data

Results flagged for a closer look

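Among 60 groups of 4 or 5 samples checked for a sample far from the others, 4 held one, where chance gives about 1 in 20. The gap to the nearest sample was 0.85 of the range of log2 CPM for Ski in replicate 3 at 405 min (81.7 CPM against 116 to 123 CPM) and 0.77 for Klf10 in control replicate 1 (78.3 CPM against 63 to 66.2 CPM). It was 0.73 for Ncor1 in control replicate 2 (304 CPM against 344 to 360 CPM) and 0.77 for Lox in control replicate 3 (946 CPM against 1249 to 1360 CPM). Replicate 3 at 405 min was the 1 library of set 1 in its group and control replicate 2 the 1 library of set 2.

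The change from control differed between 405 and 135 min for 4 named pathway genes by the edgeR test of that difference. The log2 difference was −0.63 for Ltbp1 (adjusted p = 0.043), −0.61 for Smurf2 (adjusted p = 0.0115), −0.90 for Thbs1 (adjusted p = 0.0456) and −0.75 for Lox (adjusted p = 0.0255). The rule for naming genes took those called in this comparison, so the flag is no further evidence. Of 15 fits without 1 library, the call was lost in 10 for Ltbp1, 4 for Smurf2, 12 for Thbs1 and 4 for Lox.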

How the results depend on the processing

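No member past the threshold and no named pathway call changed direction under any alternative, but members not past it did: Cyr61 (to −0.28 at 405 min and −0.90 at 45 min) and Ski (to −0.35 at 405 min and −0.07 at 45 min) within set 2, Tgif1 at 45 min (to 0.06 within set 2), and against 135 min Ski (to −0.44 with library set in the model), Skil (to 0.49 within set 1) and Ankrd1 (to −0.09 without 405-min replicate 3). Within set 2 the 45-min values compared 1 sample with 1 control, and the 405-min values 3 samples with 1 control. Cyr61 at 45 min was −0.06 without control replicate 3, and Tgif1 0.03 without 45-min replicate 1. At 45 min DESeq2 put 1 member past the threshold, and 0 were past it without any single library. Of pathway genes, 7 were called at 135 min. The count was 13 with DESeq2, 4 without a filter, 0 with only the groups compared, 15 with library set in the model, 12 within set 1, 1 with the replicate block and 3 with the GC offset and the block, and 0 to 9 without single libraries. At 405 min 23 were called, and 15 with total counts only, 10 with only the groups compared, 12 with the replicate block, 3 within set 1, 8 within set 2 and 14 without the libraries with the extreme GC slopes, and 10 to 32 without single libraries. At 405 against 135 min 4 were called, and 15 with DESeq2, 0 without a filter, 22 with only the groups compared, 0 with the replicate block, 7 with library set in the model, 0 within set 1, 7 with the GC offset and 0 with that and the block, and 0 to 12 without single libraries. In that comparison total counts moved the split over all genes from 230 higher and 290 lower to 325 and 193. Of members, 5 were past the threshold at 405 min, all lower, beside 13.4% of all genes that were lower. With the replicate block 3 were, and 4 to 6 without single libraries. Against 135 min 5 were, all higher, beside 2.24% of all genes, and 3 with library set in the model, beside 171 of 10276 genes. With the replicate block 1 was, and 3 with the GC offset and the block, with 1 to 5 without single libraries. At 135 min 3 to 5 members were past it without single libraries. The share of all genes in the fits with a block or without single libraries is not given here, and nothing is read from those member counts. Fits within a set had fewer samples, and the cause of the other shifts was not tested.

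Of 30 named pathway calls, 2 (Thbs1 and Gadd45a at 405 min) were made under every alternative and without any single library. Calls were lost without control replicate 1 (10), 3 (5), 4 (8) or 5 (5), without 45-min replicate 1 (5), 2 (4) or 3 (2), without 135-min replicate 1 (12), 2 (11) or 3 (10), and without 405-min replicate 1 (11), 2 (11), 3 (5) or 4 (16), with adjusted p-values of 0.0504 to 0.251. Samples with the same replicate number were not more alike. They had a mean correlation of deviations of −0.11 over 19 pairs, of which 4 exceeded 0.1. Samples with different numbers had a mean of 0.03 over 64 pairs, of which 21 exceeded 0.1. Library set was not removed from these deviations, so this check could not exclude a pairing by number.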
